A study of Mus musculus with 2 samples.

Results

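The genes described here are 35 genes of protein folding and protein degradation in the endoplasmic reticulum, compared between C2C12 cells given si*Malat1* and C2C12 cells given siNC. They were taken from the deposited table by gene symbol and sorted by function into 6 chaperones, 7 cochaperones, 10 disulfide enzymes, 3 stress sensors and 9 degradation factors, and all 35 were found among its 22095 genes. C2C12 cells are mouse myoblasts of an established line, which stop dividing and form multinucleated myotubes once serum is lowered in differentiation medium (DM). Polyadenylated RNA was sequenced from cells transfected with a short interfering RNA against the nuclear long non-coding RNA *Malat1* (si*Malat1*) and from cells transfected with a negative control oligo (siNC), and both groups were myoblasts of this line put in DM. The sample labels give no day in DM, and the study's text puts the cells at the second day. There was 1 library per condition, so the variation between cultures is unknown for every difference below, and no p-value or standard error is given.

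The endoplasmic reticulum is where secreted and membrane proteins fold. Chaperones hold unfolded chains, their cochaperones time the binding, and disulfide isomerases form and reshuffle disulfide bonds with oxidizing power from the Ero1 oxidases. When unfolded protein builds up, the sensors IRE1, ATF6 and PERK start the unfolded protein response. IRE1 splices *Xbp1* mRNA, and XBP1 and ATF6 raise chaperone and degradation genes, whereas PERK slows translation and leads to ATF4. Chains that fail to fold are recognized by lectins, drawn back through the membrane and marked with ubiquitin for the proteasome. In muscle this machinery matters for the collagens, receptors and channels that a myotube sends to its surface, and a phase of endoplasmic reticulum stress signaling is known in differentiating myoblasts.

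Levels are given in FPKM, fragments per kilobase of transcript scaled by the authors to sequencing depth, as deposited. Because FPKM is a value per length, levels of different genes can be set side by side. A difference is given as a log2 ratio, si*Malat1* over siNC, with 0.1 FPKM first added to each value. That constant understates the change of genes of low FPKM. Of the 35 genes, 34 had a mean of at least 1 FPKM and were above 0 in both libraries, as was true of 11099 genes of the whole table. The remaining gene, *Derl3*, is described with the degradation factors but enters no count.

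The folding machinery was almost level between the libraries, and *Herpud1*, a membrane protein of the degradation complex, was the only gene past 1.3-fold. Past this difference, 1 of the 34 genes (2.94%) was higher in si*Malat1* and 0 were lower. Over all 11099 genes the shares were 4.96% higher and 5.84% lower, so 1 higher gene does not set the group apart. With FPKM scaled to their sum in each library, those shares were 3.91% and 8.24%, and the counts of 1 and 0 among the 34 genes stayed as they were. At 1.2-fold, with FPKM as deposited, the counts were again 1 and 0, beside 8.74% higher and 12.8% lower over all genes. At 1.5-fold they were 0 and 0, beside 2.29% and 1.75%. The 34 genes had a median log2 ratio of 0.01, beside -0.04 over all genes, and 19 were above 0 and 15 below it. This median turned to -0.05 when FPKM were scaled to their sum, so it has no firm sign. Their ratios spanned -0.20 to 0.53, and without *Herpud1* -0.20 to 0.25, beside -2.91 to 2.83 over all genes. The size of the log2 ratio, sign aside, had a median of 0.08 for the 34 genes and 0.13 for all genes.

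**Figure D1:**
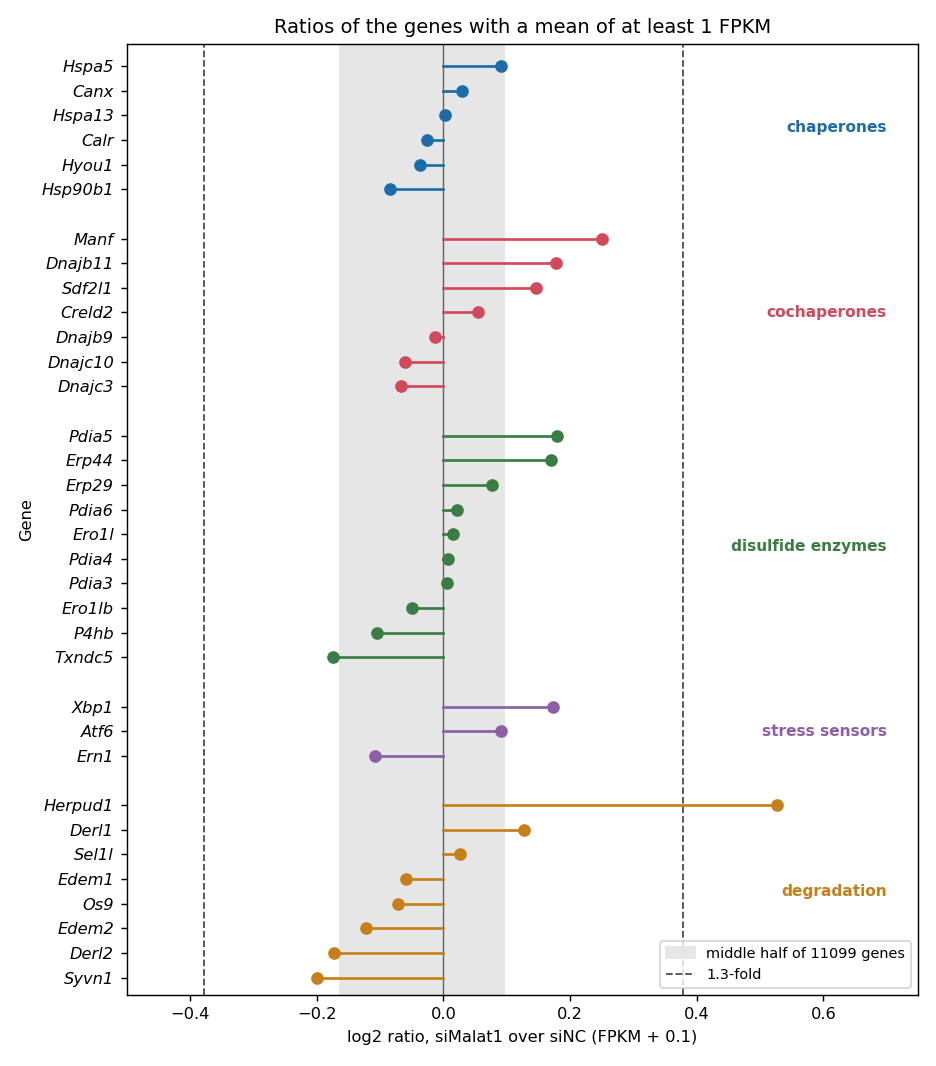
The log2 ratio of si*Malat1* over siNC (FPKM + 0.1, horizontal axis) is shown for each of the 34 genes that could be compared, grouped and colored by function, with the range between the quartiles of 11099 genes in gray and 1.3-fold as dashed lines. *Herpud1*, at 0.53, lies alone outside the dashed lines, and the next highest is *Manf* at 0.25.

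Levels differed widely among the genes and within each function. In sum the genes held 3565 FPKM in si*Malat1* and 3555 FPKM in siNC, which was 0.709% of all FPKM in si*Malat1* and 0.733% in siNC. *Calr* led in both libraries, and *Hspa5*, *P4hb* and *Hsp90b1* took the next places in both, with *Hspa5* above *P4hb* in si*Malat1* and below it in siNC. Chaperones summed to 1651 FPKM in si*Malat1* and 1659 FPKM in siNC, and disulfide enzymes to 1198 FPKM in si*Malat1* and 1236 FPKM in siNC. The smaller groups each had the higher sum in si*Malat1*. Cochaperones summed to 328 FPKM in si*Malat1* and 302 FPKM in siNC, sensors to 106 and 97.1 FPKM in the same order, and degradation factors to 282 and 261 FPKM. *Herpud1* alone was 25.2 FPKM higher in si*Malat1*, more than the whole difference between the sums of the degradation factors.

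**Figure D2:**
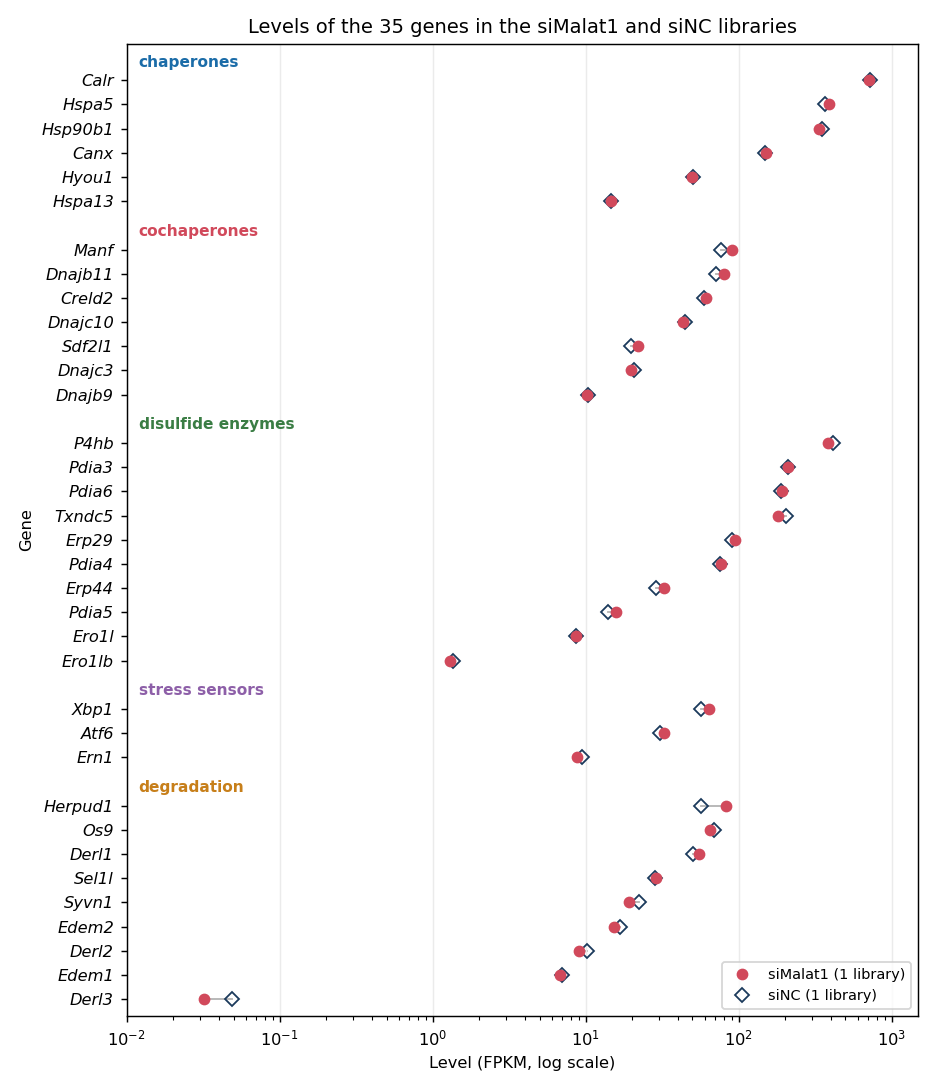
Levels in FPKM (horizontal log axis) of all 35 genes are drawn by function, with filled circles for the si*Malat1* library and open diamonds for the siNC library, 1 library each. The symbols overlap for most genes, and a gap is plain for *Herpud1* (82.4 FPKM in si*Malat1* and 57.2 FPKM in siNC) and for *Derl3*, which is below 0.1 FPKM in both.

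The chaperones are the proteins that bind unfolded chains in the lumen, and each of the 6 was within 1.07-fold between the libraries. *Hspa5* encodes BiP, the main Hsp70 of the endoplasmic reticulum and the gene most often read as a gauge of the unfolded protein response. It stood at 390 FPKM in si*Malat1* and 366 FPKM in siNC, a log2 ratio of 0.09, and 74.2% of all genes had a lower ratio. It lies on chromosome 2 of mm9 from 34627610 to 34632049. *Hsp90b1*, the Hsp90 of the lumen that folds integrins and Toll-like receptors, leaned the other way with 333 FPKM in si*Malat1* and 353 FPKM in siNC (log2 ratio -0.08). *Hyou1*, a large Hsp70-like protein that recharges BiP with ATP, had 49.4 FPKM in si*Malat1* and 50.7 FPKM in siNC (-0.04). The atypical Hsp70 *Hspa13* was nearly identical, with 14.6 FPKM in si*Malat1* and 14.6 FPKM in siNC (0.00). Calreticulin and calnexin are lectins that hold glycoproteins until they fold, the soluble and the membrane-bound form. The calreticulin gene *Calr* had 713 FPKM in si*Malat1* and 726 FPKM in siNC (-0.03). The calnexin gene *Canx* had 151 FPKM in si*Malat1* and 148 FPKM in siNC (0.03). The signs for *Hspa13*, *Calr* and *Canx*, and that of the group's median of -0.01, turned with the scaling between the libraries.

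Several of these promoters hold the endoplasmic reticulum stress element, the sequence CCAAT, any 9 bases, CCACG to which NF-Y and ATF6 are known to bind. The 250 bases before each annotated start and the 50 after it were taken from the RefSeq promoter table for GRCm38.p6, a later build than that of the deposited table. The stretches below are shown because they carry this element in chaperone genes whose levels hardly differed. Each reads along the gene's strand with the element in capitals, and in *Calr* the element runs on the opposite strand, so it reads CGTGG, 9 bases, ATTGG.
*Hspa5* (chr2:34772013-34772055, plus strand, element 65 bases before the start): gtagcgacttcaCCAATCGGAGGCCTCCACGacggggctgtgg
*Hsp90b1* (chr10:86705626-86705668, minus strand, 212 bases before): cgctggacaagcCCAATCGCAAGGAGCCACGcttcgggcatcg
*Calr* (chr8:84847063-84847105, minus strand, 162 bases before): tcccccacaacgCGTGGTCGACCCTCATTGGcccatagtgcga
*Canx* (chr11:50325788-50325830, minus strand, 145 bases before): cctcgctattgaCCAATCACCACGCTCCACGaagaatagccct

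Cochaperones spread somewhat wider, with 4 of 7 above 0, and *Manf* was the highest of them. *Manf*, a small secreted protein that binds BiP and is made under endoplasmic reticulum stress, had 91.2 FPKM in si*Malat1* and 76.6 FPKM in siNC. Its log2 ratio of 0.25 corresponds to 1.19-fold, below the 1.2-fold line, and 90.6% of all genes had a lower one. The log2 ratio was 0.20 with FPKM scaled to their sum. It was 0.28 with FPKM scaled to their upper quartile and 0.29 centred on the median of all genes, both past 1.2-fold. *Manf* lies on chromosome 9 of mm9 from 106789746 to 106794269. *Dnajb11* and *Sdf2l1*, whose products work together in a complex with BiP, were both on the higher side. *Dnajb11* had 80.0 FPKM in si*Malat1* and 70.7 FPKM in siNC (0.18). *Sdf2l1* had 22.0 FPKM in si*Malat1* and 19.8 FPKM in siNC (0.15). *Creld2*, a protein with EGF-like repeats made under endoplasmic reticulum stress, had 61.5 FPKM in si*Malat1* and 59.2 FPKM in siNC (0.05). The other J-domain proteins, which stimulate the ATPase of BiP, were level or slightly lower. *Dnajb9*, a known target of the IRE1 and XBP1 branch, stood at 10.3 FPKM in si*Malat1* and 10.3 FPKM in siNC (-0.01, a sign that turned with the scaling). *Dnajc3*, which also restrains PERK, had 19.8 FPKM in si*Malat1* and 20.7 FPKM in siNC (-0.07). *Dnajc10*, a J-domain protein that reduces disulfides, had 43.1 FPKM in si*Malat1* and 44.9 FPKM in siNC (-0.06). The group's median was 0.05, and it was 0.00 with FPKM scaled to their sum.

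The 10 disulfide enzymes were within 1.2-fold of level, with 7 above 0 and a median of 0.01. *P4hb*, the classical protein disulfide isomerase and a subunit of collagen prolyl 4-hydroxylase, was the most abundant of them, with 385 FPKM in si*Malat1* and 414 FPKM in siNC (-0.11). *Txndc5*, another isomerase, had the lowest ratio of the group, with 180 FPKM in si*Malat1* and 204 FPKM in siNC (-0.17). *Pdia3*, which works with calnexin and calreticulin on glycoproteins, had 212 FPKM in si*Malat1* and 211 FPKM in siNC (0.01). These differences ran in no common direction. *Pdia6*, which acts on substrates of BiP, had 191 FPKM in si*Malat1* and 189 FPKM in siNC (0.02). *Pdia4*, an isomerase with an extra thioredoxin-like domain, had 76.4 FPKM in si*Malat1* and 76.1 FPKM in siNC (0.01). *Pdia5*, an isomerase of lower abundance, had 15.9 FPKM in si*Malat1* and 14.0 FPKM in siNC (0.18). *Erp29*, a relative without the usual active-site cysteines, and *Erp44*, which keeps the Ero1 oxidases in the cell, were both on the higher side. *Erp29* had 95.5 FPKM in si*Malat1* and 90.5 FPKM in siNC (0.08). *Erp44* had 32.4 FPKM in si*Malat1* and 28.8 FPKM in siNC (0.17). The oxidases that recharge these enzymes had the lowest levels of the group. *Ero1l* stood at 8.72 FPKM in si*Malat1* and 8.63 FPKM in siNC (0.02). *Ero1lb*, known as the form of the pancreas, stood at 1.305 FPKM in si*Malat1* and 1.35 FPKM in siNC (-0.05). The signs for *Pdia3*, *Pdia4*, *Pdia6* and *Ero1l*, and that of the group's median, turned with the scaling between the libraries. *Pdia4* shares its locus in the table with *Mir704* and *Pdia6* with *Atp6v1c2*, so their FPKM are less certain.

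Of the sensors, *Xbp1*, the transcription factor gene whose mRNA IRE1 splices, had 64.2 FPKM in si*Malat1* and 57.0 FPKM in siNC, a log2 ratio of 0.17. *Atf6*, a membrane-bound factor that is cut loose in the Golgi, had 32.6 FPKM in si*Malat1* and 30.6 FPKM in siNC (0.09). *Ern1*, which encodes IRE1 itself, had 8.81 FPKM in si*Malat1* and 9.50 FPKM in siNC (-0.11). The 3 genes therefore did not share a direction, and all lay within 1.2-fold. The table holds 1 value per gene, so spliced and unspliced *Xbp1* mRNA cannot be told apart, and the activity of the sensors is not measured by their mRNA.

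The degradation factors held both the highest and the lowest ratio of the 34 genes. *Herpud1* encodes a membrane protein with a ubiquitin-like domain that organizes the complex of the ligase HRD1, and it is known as a gene of the endoplasmic reticulum stress response. It had 82.4 FPKM in si*Malat1* and 57.2 FPKM in siNC, which is 1.44-fold and a log2 ratio of 0.53, and 97.3% of all genes had a lower ratio. Under the other scalings, constants and filters its log2 ratio ranged between 0.47 and 0.56. Its position in mm9 is chromosome 8, 96910400 to 96919258, and it shares its locus with no other gene of the table. *Syvn1*, the gene of HRD1 itself, was at the other end with 19.4 FPKM in si*Malat1* and 22.2 FPKM in siNC (-0.20), and 19.8% of all genes had a lower ratio. Its position in mm9 is chromosome 19, 6046576 to 6057751, a locus it shares in the table with the mitochondrial ribosomal gene *Mrpl49*, so its FPKM is less certain. *Sel1l*, the partner that holds HRD1 stable, had 29.0 FPKM in si*Malat1* and 28.5 FPKM in siNC (0.03, a sign that turned with the scaling). Among these genes of the complex, 1 thus had a higher mRNA level in si*Malat1*, with those of its ligase and adaptor within 1.2-fold. The proteins were not measured.

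The other degradation factors stayed within 1.2-fold. *Edem1* and *Edem2* trim mannose from glycoproteins that fail to fold, and *Os9* is a lectin that reads the trimmed glycan. *Edem1* had 6.78 FPKM in si*Malat1* and 7.07 FPKM in siNC (-0.06). *Edem2* had 15.5 FPKM in si*Malat1* and 16.8 FPKM in siNC (-0.12). *Os9* had 65.5 FPKM in si*Malat1* and 68.8 FPKM in siNC (-0.07). These log2 ratios were slightly below 0. Centred on the median of all genes they were -0.02 for *Edem1*, -0.09 for *Edem2* and -0.03 for *Os9*. Among degradation factors outside the set, *Edem3* had a log2 ratio of -0.03 and the lectin gene *Erlec1* one of 0.25. Genes of glycan recognition therefore shared no direction. The derlins are membrane proteins through which chains leave the lumen, and they differed from each other in direction. *Derl1* had 54.9 FPKM in si*Malat1* and 50.2 FPKM in siNC (0.13). *Derl2* had 9.07 FPKM in si*Malat1* and 10.2 FPKM in siNC (-0.17). *Derl3* was close to absent, with 0.0319 FPKM in si*Malat1* and 0.0492 FPKM in siNC, and no ratio is given at these levels. The median of the 8 degradation factors that could be compared was -0.06.

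The promoters of *Herpud1* and *Syvn1* are shown because these genes lie at opposite ends of the ratios. The *Syvn1* promoter holds the stress element, in capitals. The *Herpud1* promoter holds the related element II, the sequence ATTGG, 1 base, CCACG, and upstream of it the sequence TGATG, any base, AA on the opposite strand, a core of the sites that ATF4 and its partners are known to bind. Both are in capitals, and the ATF4-type motif reads TT, any base, CATCA on the gene's strand. This motif was added to the search after the value of *Herpud1* had been seen.
*Syvn1* (chr19:6046520-6046562, plus strand, element 44 bases before the start): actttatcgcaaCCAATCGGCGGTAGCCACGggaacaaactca
*Herpud1* (chr8:94386305-94386399, plus strand, motifs 112 and 52 bases before the start): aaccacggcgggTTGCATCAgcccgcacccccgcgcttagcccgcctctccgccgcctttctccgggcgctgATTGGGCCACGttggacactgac

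Of the 35 genes, 29 had a promoter in the RefSeq table, with *Ero1l* and *Ero1lb* found under the newer symbols *Ero1a* and *Ero1b*. *Hspa13*, *Hyou1*, *Manf*, *Erp29*, *Atf6* and *Derl1* had none there. The stress element was in 10 of the 29, namely *Hspa5*, *Hsp90b1*, *Calr*, *Canx*, *Dnajc3*, *Creld2*, *Pdia6*, *Ero1lb*, *Syvn1* and *Derl3*, with matches counted on both strands. *Hsp90b1* holds a further match on the opposite strand, 107 bases before its start. Over the whole table it was in 39 of 32851 promoters, or 0.119%. Element II was in *Herpud1* and *Dnajb11*, and in 0.0365% of all promoters. TGACGTGG, a motif to which XBP1 and ATF6 are known to bind, was in *Txndc5* and in 0.676% of all promoters. The ATF4-type motif was in *Herpud1* and *Txndc5* and in 3.97% of all promoters. *Txndc5* has 3 annotated promoters, and its motifs lie in different ones. No match of a motif overlapped a match of another in these promoters. A match is a stretch of letters and not a measured binding site, and its absence says only that the letters are not in this window.

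**Figure D3:**
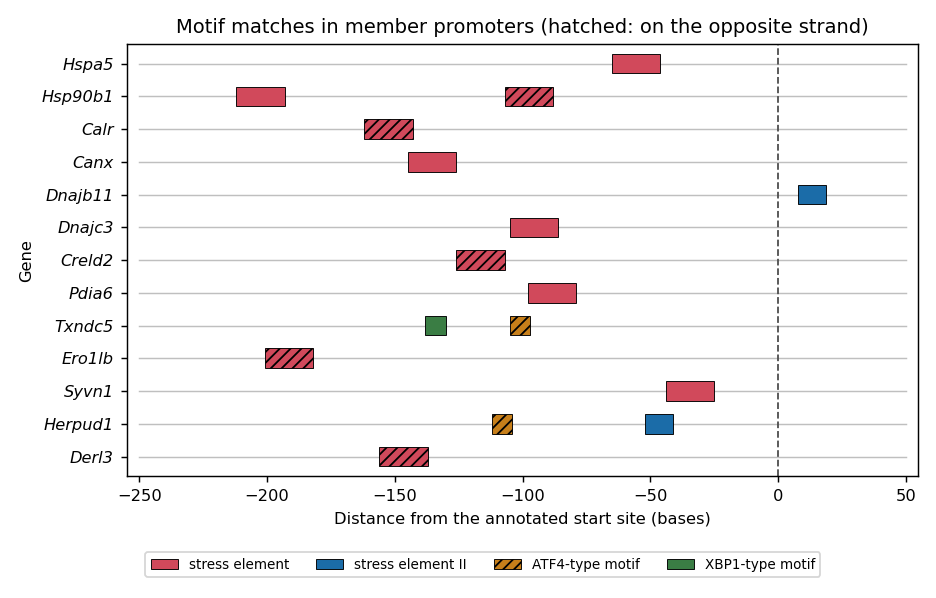
Matches of 4 motifs are drawn by distance in bases from the annotated start (dashed line, horizontal axis) for the 13 genes that hold any, colored by motif and hatched where the match is on the opposite strand. *Herpud1* holds an ATF4-type motif and element II, *Dnajb11* holds element II just after its start, and the matches of *Txndc5* belong to different start sites drawn on 1 line.

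Of the genes with the stress element, *Derl3* aside, 9 could be compared. Their median log2 ratio was -0.03, with a range of -0.20 to 0.09, and 0 were past 1.3-fold in either direction. The 19 genes with a promoter but no such element had a median of 0.01, with *Herpud1* as the 1 past 1.3-fold. Counted over every gene of the table that could be compared, 13 held the element, these 9 included. Their ratios spanned -0.29 to 0.14, and 0 were past 1.3-fold. Of the 8732 genes without the element, 4.64% were higher and 5.52% lower. A count of 0 among so few genes is near those shares. Of 226 comparable genes with the ATF4-type motif, 9.73% were past 1.3-fold on the higher side and 7.08% on the lower side, against 4.50% and 5.47% of the 8519 genes without it. This motif was chosen after the value of *Herpud1* had been seen. The higher genes include *Herpud1* and, from the PERK list below, *Trib3*, *Chac1*, *Atf3*, *Nupr1* and *Asns*. The share on the higher side therefore does not test the motif. These shares are descriptions of 2 libraries, and genes with a motif were not matched to the others on level.

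Ratios also depend on level, so the genes were set beside all genes of like FPKM. Between a mean of 1 and 20 FPKM, 0 of 9 genes were past 1.3-fold, where 5.65% of 6748 genes were higher and 8.06% lower. Between 20 and 100 FPKM, *Herpud1* was the 1 of 17 on the higher side and 0 were lower, where 3.23% of 3472 genes were higher and 2.51% lower. At 100 FPKM and above, where *Calr*, *P4hb*, *Hspa5*, *Hsp90b1*, *Pdia3*, *Txndc5*, *Pdia6* and *Canx* lie, 0 of 8 were past 1.3-fold, where 6.48% of 879 genes were higher and 1.93% lower. In this top range the genes had a median log2 ratio of -0.01 and all genes one of 0.05.

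**Figure D4:**
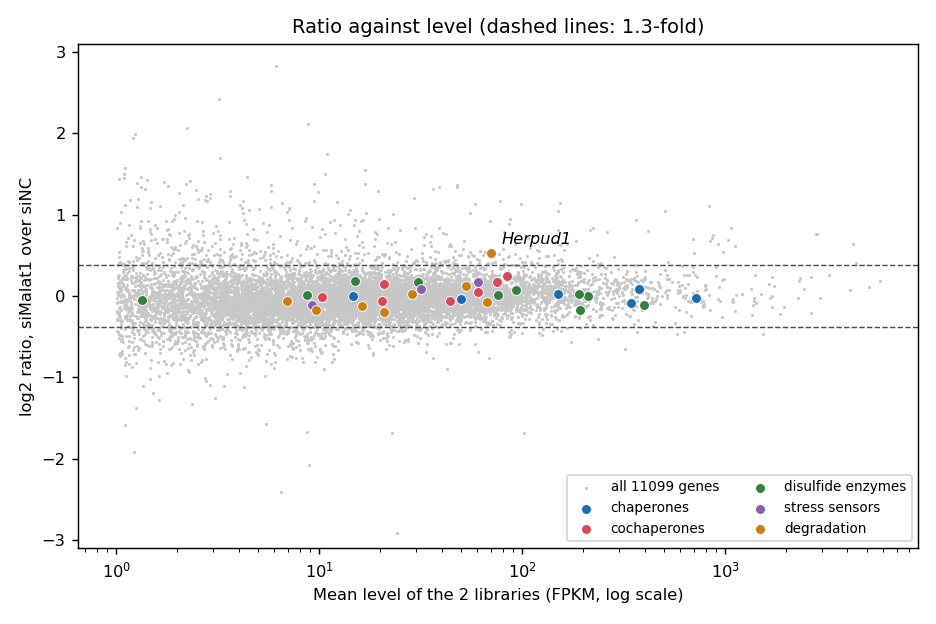
The log2 ratio of si*Malat1* over siNC (vertical axis) is plotted against the mean FPKM of both libraries (horizontal log axis) for 11099 genes in gray and the 34 genes in color by function, with 1.3-fold as dashed lines. The colored points keep close to 0 across the whole range of levels, and *Herpud1* is the point above the upper line.

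The rest of the secretory pathway was described with lists of genes outside the 35. Among 20 other folding factors, 0 were past 1.3-fold in either direction and the median log2 ratio was 0.05. The prolyl isomerase *Fkbp11* was highest with 39.4 FPKM in si*Malat1* and 32.9 FPKM in siNC, and the thioredoxin-like *Txndc11* lowest with 8.56 FPKM in si*Malat1* and 10.1 FPKM in siNC. Among 23 genes of the translocon and of signal peptide processing, which bring chains into the lumen, the counts were also 0 and 0, with a median of 0.06. They ran from *Sec61b*, with 55.5 FPKM in si*Malat1* and 65.3 FPKM in siNC, to its fellow channel subunit *Sec61a2*, with 16.8 FPKM in si*Malat1* and 13.9 FPKM in siNC. Among 17 genes of N-glycosylation and glycan trimming, 0 were higher and 1 was lower, with a median of -0.04. The lower gene was the mannosidase *Man1a*, at 1.71 FPKM in si*Malat1* and 2.39 FPKM in siNC, while *Ostc*, of the oligosaccharyltransferase complex, was highest with 87.7 FPKM in si*Malat1* and 69.8 FPKM in siNC.

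Other degradation factors, 22 that could be compared of 24 listed, had 0 past 1.3-fold and a median of 0.03. The lectin gene *Erlec1* was highest, with 23.2 FPKM in si*Malat1* and 19.6 FPKM in siNC, and *Erlin1*, of the membrane complex that degrades IP3 receptors, was lowest, with 14.2 FPKM in si*Malat1* and 15.9 FPKM in siNC. Export and retrieval, 20 genes of the vesicle coat and of cargo receptors, had 0 past 1.3-fold and a median of 0.00. The Sar1 exchange factor *Preb* was highest, with 41.7 FPKM in si*Malat1* and 33.4 FPKM in siNC, and the coat subunit *Sec24b* lowest, with 19.5 FPKM in si*Malat1* and 23.2 FPKM in siNC. The KDEL receptors return BiP and its partners from the Golgi. *Kdelr1* had 86.3 FPKM in si*Malat1* and 85.0 FPKM in siNC, *Kdelr2* 62.8 FPKM in si*Malat1* and 68.9 FPKM in siNC, and *Kdelr3* 42.5 FPKM in si*Malat1* and 40.8 FPKM in siNC. The size of the log2 ratio, sign aside, had a median of 0.08 for the 34 genes and 0.13 for all genes. It was 0.12 for the other folding factors, 0.11 for the translocon list and 0.10 for export and retrieval. For the other degradation factors it was 0.08, and for N-glycosylation and glycan trimming 0.07. By this measure the 34 genes were not set apart from the rest of the pathway.

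Regulators of the unfolded protein response were described by branch. Among 12 genes that act with ATF6 and IRE1, 0 were past 1.3-fold and the median was -0.08. The factor *Creb3*, a relative of ATF6, had 63.2 FPKM in si*Malat1* and 58.8 FPKM in siNC, and its relative *Creb3l2* had 16.9 FPKM in si*Malat1* and 20.4 FPKM in siNC. Of the genes listed at and below PERK, 10 of 16 were past 1.3-fold on the higher side and 0 on the lower side, with a median of 0.45. Over all genes the shares were 4.96% higher and 5.84% lower. This list was written with earlier results of these data known, so its count is a description and not a test. The count was not rerun under the other scalings. The kinase gene itself, *Eif2ak3*, had 8.34 FPKM in si*Malat1* and 8.69 FPKM in siNC, whereas *Atf4* had 330 FPKM in si*Malat1* and 237 FPKM in siNC. *Ddit3*, which encodes CHOP, had 49.3 FPKM in si*Malat1* and 37.8 FPKM in siNC. It shares its locus in the table with another gene, so its FPKM is less certain. The pseudokinase gene *Trib3* had 15.9 FPKM in si*Malat1* and 5.53 FPKM in siNC. Most genes of this list also answer to other kinases that act on eIF2 alpha, such as the one that senses amino acid shortage, and which of them was active was not measured. Of the 15 PERK-list genes with a RefSeq promoter, 5 held the ATF4-type motif, which was chosen after the value of *Herpud1* had been seen, beside 4.51% of all genes with a promoter.

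**Figure D5:**
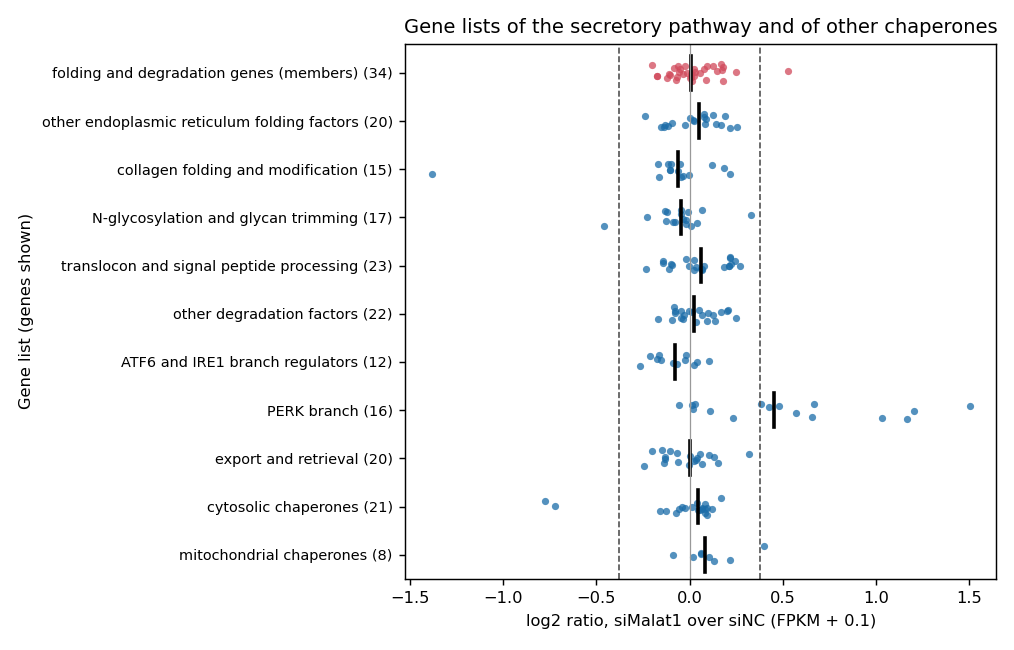
Each point is the log2 ratio of si*Malat1* over siNC (FPKM + 0.1, horizontal axis) of a gene that passed the same minimum level, by gene list (the marker lists are not drawn), with the 35-gene set in red, a black bar at each median and 1.3-fold as dashed lines. The PERK list is shifted to the right, with a median of 0.45, and each of the other lists drawn here has its median between -0.08 and 0.08.

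Facts of the libraries bear on these values. *Malat1*, the target, had 34.2 FPKM in si*Malat1* and 41.8 FPKM in siNC (log2 ratio -0.29), and 10.5% of all genes had a lower ratio. The difference in the target was thus modest in FPKM of polyadenylated RNA. The study describes the 3' end of *Malat1* as cut by RNase P and not formed by canonical polyadenylation. How well these FPKM gauge the knockdown is therefore unknown. The study also reports the knockdown by RT-qPCR in the samples that were sequenced. Markers of differentiation and of proliferation, listed with earlier results of these data known, also differed between the libraries. Over all genes, 4.96% were past 1.3-fold on the higher side and 5.84% on the lower side. Of 8 myoblast and myotube markers, 6 were past 1.3-fold on the higher side and 0 on the lower side, with a summed level of 9718 FPKM in si*Malat1* and 6683 FPKM in siNC. The regulator *Myog* had 857 FPKM in si*Malat1* and 525 FPKM in siNC, the embryonic myosin *Myh3* 531 FPKM in si*Malat1* and 304 FPKM in siNC, and *Myod1* 95.8 FPKM in si*Malat1* and 113 FPKM in siNC. Of 6 proliferation markers, 5 were past 1.3-fold on the lower side, with a summed level of 130 FPKM in si*Malat1* and 162 FPKM in siNC. *Mki67* had 5.67 FPKM in si*Malat1* and 9.67 FPKM in siNC, and *Pcna* 77.8 FPKM in si*Malat1* and 83.2 FPKM in siNC. These markers moved beside *Herpud1*, and their part in its difference was not tested. In bulk RNA, fewer cells of a kind and less RNA per cell cannot be told apart. Of 13 markers of fat, cartilage, bone, blood, endothelial, glial and epithelial cells, 2 had a mean of at least 1 FPKM. They were *Cd36*, which muscle cells also express, at 2.11 FPKM in si*Malat1* and 0.720 FPKM in siNC, and *Bglap*, of bone, at 5.77 FPKM in si*Malat1* and 4.76 FPKM in siNC. The list summed to 8.65 FPKM in si*Malat1* and 6.65 FPKM in siNC, and 4 of its genes were listed at 0 in each library, among them *Adipoq*, *Plin1* and *Epcam* in both. FPKM summed to 502715 in si*Malat1* and 484715 in siNC, with 15761 and 16299 genes above 0 in the same order. The depth behind the FPKM is unknown from the table, so no interval for counting error is given.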

How the data were processed

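By the study's methods and the submitters' processing notes, polyadenylated RNA was sequenced as paired reads of 50 bp and mapped to mm9 with TopHat2 2.0.9, and the authors estimated FPKM with Cufflinks 2.1.1 and compared the libraries with Cuffdiff 2.1.1. Each row of the deposited table holds a gene's FPKM in both libraries as estimated by the authors, a locus (starts were raised by 1 here), the natural log of the fold and a mark for genes called at a q-value of 0.05. Neither of these last columns was used. The gene annotation and the strand of the libraries are not given in the sources used here, so overlapping and antisense genes cannot be told apart, and 3375 genes share a locus.

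The log2 ratio of FPKM plus 0.1 was computed from the deposited FPKM for genes above 0 in both libraries with a mean of at least 1 FPKM. Genes were counted past 1.3-fold. The members and lists were chosen with earlier results of these data known. All members were named, and in the 13 other lists the genes with the highest and the lowest ratio, with *Eif2ak3*, *Atf4*, *Ddit3*, *Trib3*, the KDEL receptors, *Serpinh1*, *Malat1*, *Myog* and *Mki67* whatever their values. Other names, such as genes sharing a locus and *Hspa1b*, were chosen after their values were seen. The code of the ratio and count steps was checked on simulated data with planted changes, which says nothing of the variation between cultures. Promoters are from RefSeq (GRCm38.p6), and no coordinates were carried between builds. Constants of 0.01 and 1 FPKM, 3 scalings, 2 filters, unshared loci and fold thresholds of 1.2 and 1.5 were tried. The analysis used numpy 2.4.6, pandas 2.3.3 and matplotlib 3.10.9 under Python 3.11.15.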

Additional observations from a re-analysis of the deposited data

How the results depend on the processing

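The count of folding and degradation genes past 1.3-fold on the higher side, 1, was 0 at a threshold of 1.5-fold, since *Herpud1* lies at 1.44-fold. It was 1 under the other 9 alternatives tried, and the count on the lower side was 0 under all 10. The median log2 ratio of the genes ranged between -0.05, with FPKM scaled to their sum, and 0.04, with ratios centred on the median of all genes, which itself moved between -0.09 and 0.00. The sign turned with a scaling for 9 of 34 genes, namely *Calr*, *Canx*, *Dnajb9*, *Ero1l*, *Hspa13*, *Pdia3*, *Pdia4*, *Pdia6* and *Sel1l*, and none of the 34 log2 ratios moved by more than 0.1 under the 8 alternatives run for single ratios. A filter at 5 FPKM left 33 of the genes and a filter on shared loci 31. Leaving out a replicate does not apply, and no paired analysis was possible because each group has 1 library. The FPKM hold no counts, so how far depth limits *Derl3* and *Ero1lb*, the lowest genes, is unknown.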

Other observations

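Folding factors outside the lumen of the endoplasmic reticulum were set beside the genes of the report. Among 21 cytosolic chaperones and cochaperones, 0 were past 1.3-fold on the higher side and 2 on the lower side, with a median log2 ratio of 0.05. The 2 lower genes were the heat-inducible Hsp70 genes, with *Hspa1a* at 8.66 FPKM in si*Malat1* and 14.9 FPKM in siNC (-0.77) and *Hspa1b* at 13.8 FPKM in si*Malat1* and 22.9 FPKM in siNC (-0.72). They are near-identical copies, so how their fragments were divided is uncertain. *Dnaja1*, a cytosolic J-domain protein, had the highest ratio, with 23.9 FPKM in si*Malat1* and 21.2 FPKM in siNC (0.17). Among 8 mitochondrial chaperones and proteases, *Hspa9*, the Hsp70 of the matrix, was the 1 past 1.3-fold, with 269 FPKM in si*Malat1* and 204 FPKM in siNC (0.40). *Trap1*, the Hsp90 of mitochondria, was lowest, with 58.8 FPKM in si*Malat1* and 62.6 FPKM in siNC (-0.09), and the median of this list was 0.08.

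Folding and modification of collagen, a task of the same compartment, had 0 of 15 genes past 1.3-fold on the higher side and 1 on the lower side, with a median of -0.06. The lower gene was *Leprel1*, a prolyl 3-hydroxylase, at 0.652 FPKM in si*Malat1* and 1.86 FPKM in siNC (-1.38). Its relative *Lepre1* was highest, with 34.0 FPKM in si*Malat1* and 29.3 FPKM in siNC (0.22). *Serpinh1*, the collagen chaperone Hsp47, had 752 FPKM in si*Malat1* and 770 FPKM in siNC (-0.04), above the level of *Calr* in both libraries. Apart from *Leprel1*, the least abundant of the list, the log2 ratios of these genes spanned -0.17, for the lysyl hydroxylase gene *Plod3*, to 0.22.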
